A study of Mus musculus with 12 samples.

Results

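The effect of traumatic brain injury (TBI) on the marrow of young C57BL/6 mice was described across genes, by setting 3 injured samples (Young-TBI) against 3 control samples (Young-CON). These are 6 of the 12 RNA samples of the series; the other 6 came from aged C57BL/6 mice (Aged-TBI and Aged-CON, 3 each) and entered the estimate of spread and the test of age. Injured mice gave their marrow 3 days after the injury. All 4 groups were C57BL/6 mice, and the labels name no transgene, drug or other treatment. The ages of the mice, their sex, the injury model and whether controls had a sham operation are not given in the labels. Nor do they say that each sample is a separate animal, so p-values here reflect the scatter of these samples alone, and that scatter may be technical. Genes were tested where they reached 1 FPKM (fragments mapped to a gene, scaled to its length and to the depth of the library) in at least 3 of the 12 samples, which kept 11767 of 24421 entries.

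Bone marrow makes all blood cells from stem cells. Neutrophils mature there in steps: promyelocytes make the proteases and the peroxidase of the primary granules, and later stages make secondary granules and then the receptors of the circulating cell. B cells are also made in the marrow, from progenitors that express the surrogate light chain and the recombinase, while mature B and T cells recirculate through it. Brain injury is known to reach the marrow through sympathetic nerves and through glucocorticoids.

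The young samples held 12.5 to 15.2 M mapped fragments, as recovered from the steps of the FPKM values. The summed FPKM was 489787, 484243 and 489227 in Young-TBI 1 to 3, against 475669, 480260 and 470060 in Young-CON 1 to 3, so the sums did not overlap. On the first principal component (41.6% of the variance among the 6 samples) the Young-TBI samples lay at −16.5, −6.89 and −18.3 and the Young-CON samples at 9.49, 14.9 and 17.3. Some libraries stood apart in single cell types. The mean log2(FPKM + 1) of red cell precursor genes was 6.34 in Young-CON 2 and between 6.51 and 7.26 in the other 5 samples. That of eosinophil genes was 4.56 in Young-CON 3, against 3.14 to 3.63 elsewhere. Type I interferon genes were highest in Young-CON 1 (5.19, against 4.46 to 4.82). Marrow markers were abundant in every sample, whereas of 10 neural and 10 skeletal muscle genes only 2 and 3 were expressed highly enough to be tested.

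Injury was followed by more RNA of neutrophil primary granule proteins and less RNA of B cells, T cells, basophils and MHC class II presentation. In bulk marrow, a change in the number of cells of a type and one in RNA per cell cannot be told apart. Of the 11767 genes, 606 (5.15%) passed at an adjusted p under 0.05 in limma, 235 (2%) of them higher and 371 (3.15%) lower in Young-TBI. The falls were deeper: their median size was 0.64 on the log2(FPKM + 1) scale, against 0.43 for the rises, and 65 genes fell but 12 rose by at least 1. Genes that rose were at a median of 26.1 FPKM in the young samples, those that fell at 9.54 FPKM and all tested genes at 11.9 FPKM. The value ranges of the 3 Young-TBI and 3 Young-CON samples did not overlap for 27.9% of genes, and the median change of all genes was −0.02. At an unadjusted p under 0.05, 8.72% of genes were higher and 11.4% lower. The number of calls depended on single libraries: 187 genes passed without Young-TBI 1, 160 without Young-TBI 3, 273 without Young-CON 2, 167 without Young-CON 3 and 970 without Aged-CON 1. A set of 134 genes (1.14% of those tested), 49 higher and 85 lower, passed in the fit of all samples and again when any 1 young sample was left out. Genes named below without a remark belong to these 134, while for others the samples whose removal, each alone, ended the call are given.

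**Figure D1:**
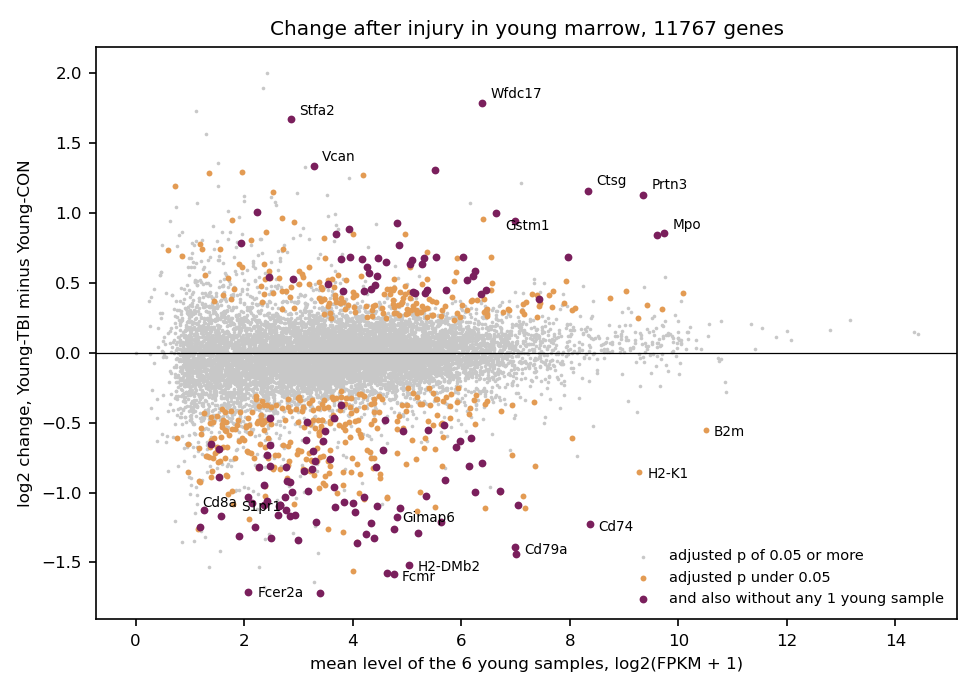
Each point is a gene, with the mean log2(FPKM + 1) of the 6 young samples on the horizontal axis and the log2 change, Young-TBI minus Young-CON, on the vertical axis. Orange genes had an adjusted p under 0.05 in limma, purple ones also did so without any 1 young sample, and the called changes span −1.72 (Fcer2a) to 1.79 (Wfdc17).

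RNA of primary granule proteins rose together. Cathepsin G (Ctsg, GRCm38 chr14:56099881-56102574, minus strand), a serine protease of neutrophil granules, was at 465, 370.4 and 506 FPKM in Young-TBI 1 to 3, against 178, 226 and 194 FPKM in Young-CON 1 to 3. The lowest injured sample, Young-TBI 2, lay above the highest control (log2 change 1.16, SE 0.12, adjusted p = 0.00174). Proteinase 3 (Prtn3, GRCm38 chr10:79874476-79883174, plus strand) was at 919, 749.8 and 1018 FPKM in Young-TBI, against 396, 441 and 384 FPKM in Young-CON (log2 change 1.13, SE 0.11, adjusted p = 0.00174). Neutrophil elastase (Elane) lies beside it on the same strand, at chr10:79886247-79888215. Elane was at 1095, 859 and 1045 FPKM in Young-TBI, against 551, 586 and 531 FPKM in Young-CON, again with no overlap (log2 change 0.84, SE 0.10, adjusted p = 0.00293). Prss57, a further granule protease on the other side of Prtn3 (chr10:79781474-79790961), averaged 15.7 ± 1.22 FPKM in Young-TBI and 8.28 ± 0.398 FPKM in Young-CON (SD, n = 3 each; log2 change 0.85). Myeloperoxidase (Mpo), which makes hypochlorous acid in the granule, averaged 1105 ± 150.4 and 608 ± 52.1 FPKM in Young-TBI and Young-CON (log2 change 0.85, adjusted p = 0.00293).

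In the list of 11 neutrophil primary granule and promyelocyte genes, 9 rose and none fell, with a median log2 change of 0.84 against −0.02 over all genes; 8 or 9 rose without any 1 young sample. The mean log2(FPKM + 1) of the list was 7.76, 7.51 and 7.79 in Young-TBI 1 to 3, against 6.91, 7.06 and 6.91 in Young-CON 1 to 3, and Young-TBI 2 was the lowest of the injured samples. Ms4a3, a membrane protein whose gene marks granulocyte and monocyte progenitors, was at 173, 142 and 189 FPKM in Young-TBI, against 78.7, 91.1 and 89.3 FPKM in Young-CON (log2 change 0.94, SE 0.09, adjusted p = 0.00174). Ficolin B (Fcnb), a lectin of the complement system made by immature myeloid cells, averaged 309.5 ± 42.6 FPKM in Young-TBI and 191 ± 12.4 FPKM in Young-CON (log2 change 0.68). Cystatin F (Cst7), which inhibits cathepsins in granules, rose by 0.67. Serpinb1a, the cytosolic inhibitor of elastase and cathepsin G, rose by 0.44 in the fit of all samples but not without Young-TBI 1, Young-TBI 3, Young-CON 1 or Young-CON 3 (adjusted p = 0.084 to 0.136). The other members, Cd63 and Clec5a, had log2 changes of 0.33 and 0.10 and did not pass.

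Upstream sequences of granule genes are shown because these genes moved together. RefSeq promoter entries (GRCm38.p6) were matched for 7 of the 9 granule genes that rose. The 250 bases before the start of each of these 7 held GGAAGT, a core sequence bound by PU.1 and other ETS factors, on either strand, as did 25% of the promoters of 8857 tested genes, 27.3% of 183 promoters of genes that rose and 21.9% of 283 promoters of genes that fell. The motif began 93, 83, 55 and 62 bases before the start in Prtn3, Elane, Ms4a3 and Cst7, 102 and 187 bases before it in Fcnb, and 222 and 205 bases before it in Mpo and Ctsg. TTGCNNAA, bound by C/EBP factors, was in 1 of the 7, against 7.7% of all promoters, and AACNGNC, bound by MYB, was in 5 of the 7, against 28.3% of all. Distances are counted from the RefSeq start, which for Prtn3, Elane and Fcnb lies within the gene span given by GENCODE. For these genes the distances therefore do not count from the ends of the stretches shown. A match is a run of letters and not a shown binding site. Both strands were searched, and motifs were counted whether or not they overlapped another. The stretches below, of up to 150 bases, run 5′ to 3′ towards the gene start, with any bases of exons annotated by GENCODE left out, and capitals mark these motifs, the RUNX motif TGTGGT, the EBF1 motif CCCNNGGG or the E2A motif CAGGTG. They are Prtn3 chr10:79879517-79879613, plus strand; Elane chr10:79886162-79886246, plus strand; Ms4a3 chr19:11640852-11641001, minus strand; Cst7 chr2:150570265-150570414, plus strand; and Fcnb chr2:28084886-28085028, minus strand.
Prtn3: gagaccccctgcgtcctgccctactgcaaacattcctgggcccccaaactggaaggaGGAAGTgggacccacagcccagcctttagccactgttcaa
Elane: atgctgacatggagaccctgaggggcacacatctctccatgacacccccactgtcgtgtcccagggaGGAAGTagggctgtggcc
Ms4a3: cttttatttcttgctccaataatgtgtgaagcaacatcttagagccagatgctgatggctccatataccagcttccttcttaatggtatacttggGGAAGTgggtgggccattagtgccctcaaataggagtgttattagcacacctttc
Cst7: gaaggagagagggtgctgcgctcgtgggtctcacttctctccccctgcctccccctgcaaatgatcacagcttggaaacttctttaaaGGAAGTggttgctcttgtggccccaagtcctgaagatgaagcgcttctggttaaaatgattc
Fcnb: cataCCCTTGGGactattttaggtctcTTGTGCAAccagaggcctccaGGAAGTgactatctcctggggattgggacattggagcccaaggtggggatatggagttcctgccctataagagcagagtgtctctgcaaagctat

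**Figure D2:**
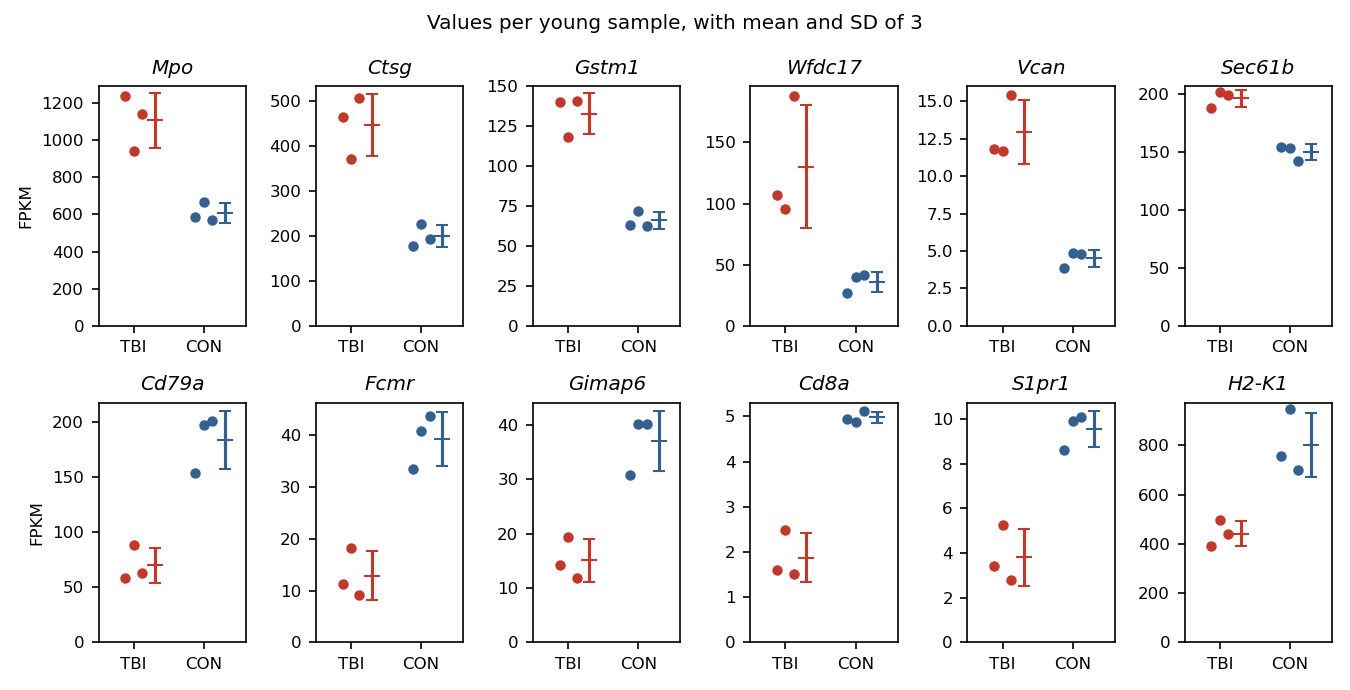
Each panel shows the FPKM of a gene in the 3 Young-TBI samples (red, left) and the 3 Young-CON samples (blue, right), with the mean and SD beside the points and axes that start at 0. In all 12 panels the Young-TBI and Young-CON samples do not overlap, and Young-TBI 3 is highest for Wfdc17 and Vcan while Young-TBI 2 is nearest to the controls for Cd79a, Fcmr, Gimap6, Cd8a and S1pr1.

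Genes of later neutrophil stages gave 1 call. Of 15 secondary and tertiary granule genes none passed (median 0.16), and the collagenase gene Mmp8 was at 471, 459.7 and 491 FPKM in Young-TBI, against 535, 699 and 584 FPKM in Young-CON, with an adjusted p of 0.181. Anxa1, which encodes the granule protein annexin A1, did not pass either (log2 change 0.37). Of 17 genes of mature neutrophils, 1 fell: the chemokine gene Ccl6 averaged 118 ± 13.8 FPKM in Young-TBI and 208 ± 36.7 FPKM in Young-CON, and its call was lost without Young-TBI 1, Young-TBI 3, Young-CON 2 or Young-CON 3 (adjusted p = 0.0734 to 0.093). None of 6 subunits of the phagocyte NADPH oxidase passed, with Cybb at a log2 change of 0.26. At an unadjusted p under 0.05, 1 secondary granule gene was higher and 1 lower, 4 mature neutrophil genes were lower and 1 oxidase gene was higher.

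Transcription factors that direct myeloid development gave no call in limma: none of 16 passed, and at an unadjusted p under 0.05, 3 were higher and 2 were lower. PU.1 itself (Spi1) was at 267, 233 and 275 FPKM in Young-TBI, against 252, 266 and 214 FPKM in Young-CON, and the ranges overlapped. Cebpe, needed for the secondary granule stage, had a log2 change of 0.31 (adjusted p = 0.118), Cebpb one of 0.34 and Gfi1, which favours neutrophils over monocytes, one of 0.29. Irf8, which favours monocytes, was at 89.5, 88.6 and 88 FPKM in Young-TBI, against 98.5, 106 and 100.3 FPKM in Young-CON; the groups did not overlap, but the change of −0.19 did not pass (adjusted p = 0.125). Among 22 receptors of myeloid cytokines only Tgfbr2, a receptor of transforming growth factor beta, changed: it fell by 0.60 on the log2 scale, a call lost without Young-TBI 3 or Young-CON 3 (adjusted p = 0.0548 to 0.0554); 2 of the list passed without Young-TBI 2 or Young-CON 2. Csf3r, through which G-CSF acts on neutrophil precursors, had a change of −0.22 (adjusted p = 0.535).

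Monocyte genes split by subtype. Of 15 genes of classical monocytes, 4 rose (median 0.23), and of 11 genes of patrolling monocytes, 5 fell (median −0.57). The matrix proteoglycan versican (Vcan) was at 11.8, 11.7 and 15.4 FPKM in Young-TBI, against 3.86, 4.87 and 4.82 FPKM in Young-CON, with Young-TBI 3 the highest and no overlap (log2 change 1.34, SE 0.19, adjusted p = 0.0044). Coagulation factor X (F10), which mouse monocytes transcribe, averaged 36.2 ± 6.71 FPKM in Young-TBI and 18.4 ± 0.886 FPKM in Young-CON (log2 change 0.93). Ly6c2 and Cd14, the other 2 that rose, depended on single samples: without Young-TBI 1, Young-TBI 2, Young-TBI 3, Young-CON 1 or Young-CON 3 (adjusted p = 0.0514 to 0.186) Ly6c2 did not pass, and Cd14 did not without Young-TBI 1, Young-TBI 3, Young-CON 1, Young-CON 2 or Young-CON 3 (adjusted p = 0.0576 to 0.121). So did every fall of the patrolling list. Ace, angiotensin-converting enzyme, averaged 3.85 ± 0.482 FPKM in Young-TBI and 9.23 ± 0.846 FPKM in Young-CON and lost its call without Young-TBI 1 or Young-TBI 3 (adjusted p = 0.0514 to 0.0603). The muscle-type enolase gene Eno3 averaged 5.29 ± 1.02 and 10.2 ± 0.786 FPKM in Young-TBI and Young-CON and lost its call without Young-TBI 3 (adjusted p = 0.0515). Nr4a1, the nuclear receptor that patrolling monocytes need, lost its call without Young-TBI 3, Young-CON 1, Young-CON 2 or Young-CON 3 (adjusted p = 0.0538 to 0.0672), and Pou2f2 without Young-TBI 1, Young-CON 2 or Young-CON 3 (adjusted p = 0.0582 to 0.0718). The number of falls in that list was 3 without Young-CON 1, 2 without Young-TBI 1, Young-CON 2 or Young-CON 3, and 1 without Young-TBI 3. The classical list had 2 rises without Young-TBI 1, Young-TBI 3, Young-CON 1 or Young-CON 3.

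The largest rise among genes that passed was that of Wfdc17 (GRCm38 chr11:83703991-83706268, plus strand), a secreted WAP-domain protein of activated macrophages. It was at 107, 95.5 and 188 FPKM in Young-TBI 1 to 3, against 26.7, 39.8 and 41.3 FPKM in Young-CON 1 to 3 (log2 change 1.79, SE 0.27, adjusted p = 0.00538), and Young-TBI 3 was far above the rest. Stfa2, a cysteine protease inhibitor of the stefin A cluster on chromosome 16, was at 10.5, 9.06 and 10.3 FPKM in Young-TBI, against 1.55, 3.39 and 2.64 FPKM in Young-CON (log2 change 1.67). Its near copies did not pass: BC100530 had a log2 change of 1.33, Stfa3 one of 0.81 and Stfa1 one of 0.70, while Stfa2l1 had one of −0.02. Members of the stefin, WAP and Ly6c families have near-identical copies whose fragments the counting may have split, so the values of single members are uncertain. Of 13 protease inhibitor genes 3 rose, and 5 did without Young-CON 2. Among 8 S100 calcium-binding protein genes, 3 rose, and none of these was S100a8 or S100a9. S100a1 averaged 39.1 ± 6.94 FPKM in Young-TBI and 21.4 ± 5.03 FPKM in Young-CON, and lost its call without Young-TBI 3 (adjusted p = 0.0527). S100a13 and S100a10 rose by 0.43 and 0.35, calls that were lost without any 1 of the 6 young samples (adjusted p = 0.052 to 0.0878) and without Young-TBI 2, Young-TBI 3, Young-CON 1, Young-CON 2 or Young-CON 3 (adjusted p = 0.0542 to 0.115).

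RNA of B cells fell in progenitor and in mature cell lists. Of 19 tested genes of B cell progenitors 15 fell (median −0.96), and the Young-TBI and Young-CON samples did not overlap for any of the 19, against 15% of all genes that were lower without overlap. Of 19 mature B cell genes 17 fell (median −1.07). Mean log2(FPKM + 1) of the mature list was 3.47, 3.93 and 3.47 in Young-TBI 1 to 3, against 4.38, 4.72 and 4.77 in Young-CON 1 to 3; Young-TBI 2 was the nearest to the controls and Young-CON 1 the lowest control. The count of progenitor falls was 8 without Young-CON 3 or Young-TBI 1 and 7 without Young-TBI 3, while that of mature B cell falls was 12 to 18 without any 1 young sample.

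Among the progenitor genes, Vpreb2, which encodes a part of the surrogate light chain of the pre-B cell receptor, was at 0.878, 1.65 and 0.499 FPKM in Young-TBI, against 5.05, 5.39 and 5.73 FPKM in Young-CON. All 3 injured samples were lower than every control (log2 change −1.71, SE 0.29, adjusted p = 0.008). The signalling chains of the B cell receptor fell together. Cd79a (GRCm38 chr7:24897381-24902197, plus strand) was at 58.9, 88.6 and 62.8 FPKM in Young-TBI, against 154, 197 and 201 FPKM in Young-CON (log2 change −1.39, SE 0.17, adjusted p = 0.00293), and Cd79b at 72.3, 103 and 77.2 FPKM in Young-TBI, against 150.3, 181 and 208 FPKM in Young-CON (log2 change −1.09). Of the transcription factors that set B cell identity, Pax5 fell by 1.11, Ikzf3 by 1.03 and Foxo1 by 0.77 on the log2 scale. The recombinase genes Rag1 and Rag2 had log2 changes of −0.73 and −0.68 and did not pass (adjusted p = 0.0936 and 0.0699), nor did Igll1 (−1.08) and Vpreb3 (−0.96).

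The deepest fall of all genes was in the mature B cell list. Fcer2a, the low-affinity IgE receptor CD23, was at 3.29, 7.16 and 2.24 FPKM in Young-TBI, against 13.2, 15.2 and 16.6 FPKM in Young-CON (log2 change −1.72, SE 0.27, adjusted p = 0.00631), with Young-TBI 2 the highest injured sample. Fcmr, the receptor for IgM, was at 11.3, 18.1 and 9.09 FPKM in Young-TBI, against 33.5, 40.7 and 43.6 FPKM in Young-CON (log2 change −1.59, SE 0.21, adjusted p = 0.00348). Chemokine receptors fell as well: Cxcr5, which places B cells in follicles, averaged 2.27 ± 0.863 FPKM in Young-TBI and 7.06 ± 1.1 FPKM in Young-CON. Ccr7 fell by 1.09 on the log2 scale. Ccr6, a chemokine receptor at low level, was at 0.217, 0.546 and 0.274 FPKM in Young-TBI, against 1.83, 2.15 and 2.62 FPKM in Young-CON (log2 change −1.25, on a scale that understates changes near 1 FPKM); it was picked after its values were seen. The survival receptor gene Tnfrsf13c, which encodes the BAFF receptor, fell by 1.22, the inhibitory receptor Cd22 by 1.36, the complement receptor Cr2 by 1.17 and the adaptor Bank1 by 1.21. Cd37, a tetraspanin of many leukocytes, and Tnfrsf13b did not pass (−0.29 and −0.08). Of 10 plasma cell genes, 2 fell and the median was 0.00; the mean log2(FPKM + 1) of the list was 3.48, 3.62 and 3.58 in Young-TBI 1 to 3, against 3.72, 3.75 and 3.72 in Young-CON 1 to 3, without overlap. These were Mzb1, which averaged 15.4 ± 3.5 FPKM in Young-TBI and 32.4 ± 5.45 FPKM in Young-CON, and Irf4; Mzb1 lost its call without Young-TBI 1, Young-TBI 3 or Young-CON 3 (adjusted p = 0.0503 to 0.0665) and Irf4 without Young-TBI 1, Young-TBI 3, Young-CON 2 or Young-CON 3 (adjusted p = 0.0712 to 0.0976). Jchain had a change of 0.14 and the plasma cell receptor gene Tnfrsf17 one of 0.28.

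**Figure D3:**
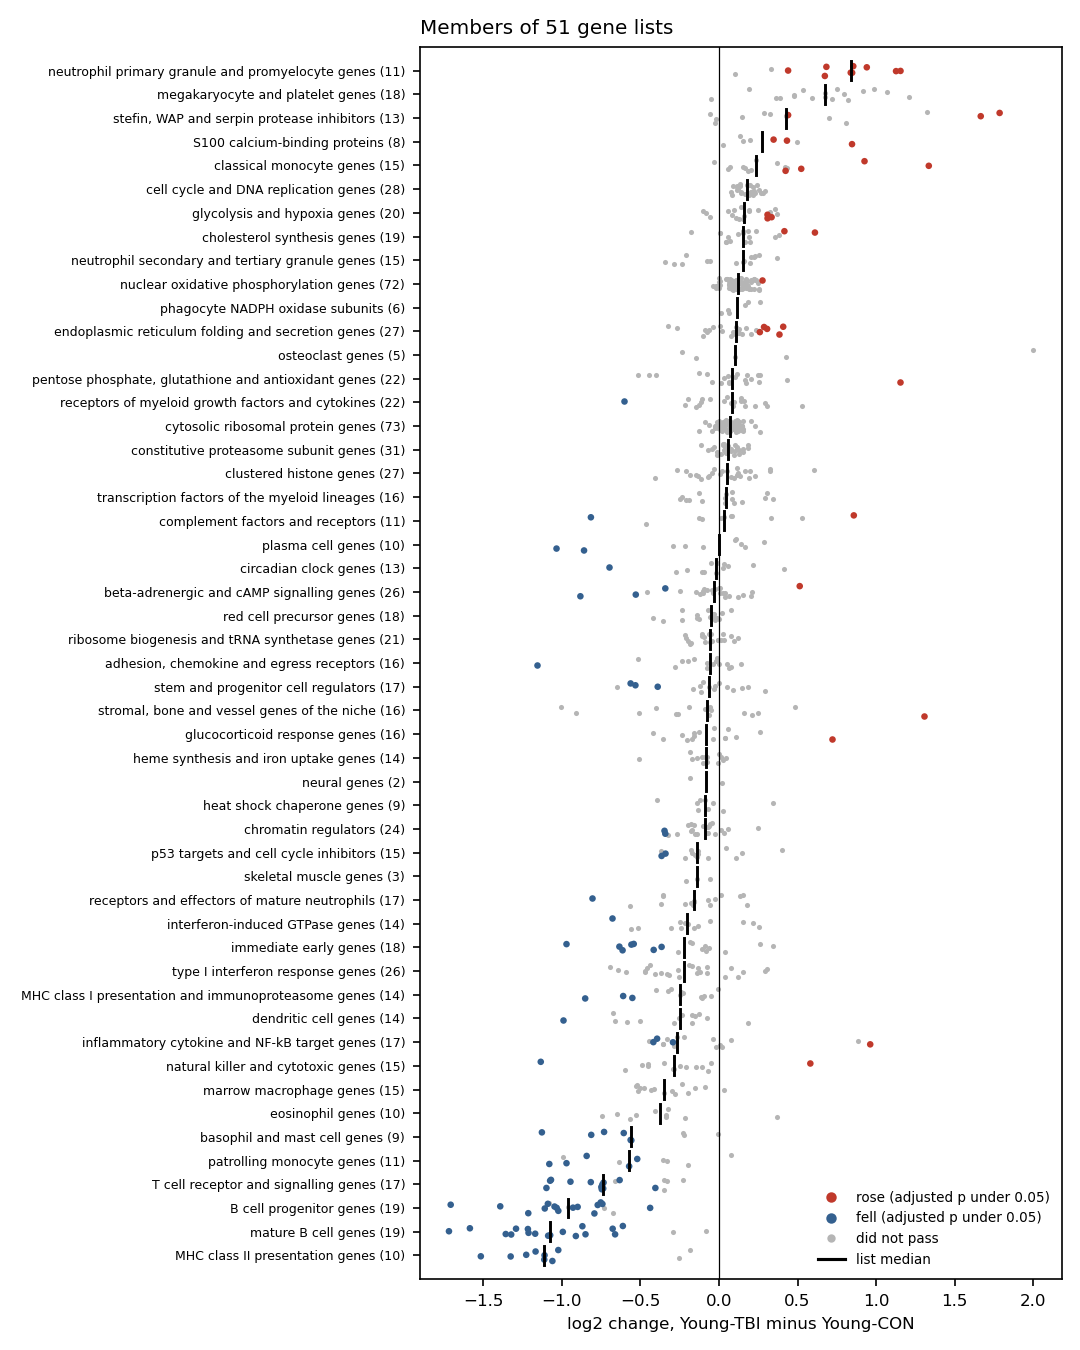
Each row is a gene list with the number of tested members, each point the log2 change (Young-TBI minus Young-CON) of a member and each black bar the list's median. Red members rose and blue members fell at an adjusted p under 0.05 in limma over all genes; the primary granule list leads with a median of 0.84 and the MHC class II, mature B and B progenitor lists close with medians of −1.11, −1.07 and −0.96.

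MHC class II presentation, by which B cells and dendritic cells show peptides to CD4 T cells, fell with the B cell genes: 8 of 10 members fell (median −1.11; 5 without Young-CON 3). The class II chaperone Cd74 was at 178, 264 and 155 FPKM in Young-TBI, against 367, 522 and 488 FPKM in Young-CON (log2 change −1.23, adjusted p = 0.00538). Peptide loading genes were among the deepest falls, among them the H2-DO chains that B cells use. H2-DMb2 was at 15.3, 21.3 and 12.2 FPKM in Young-TBI, against 38.6, 51.5 and 53 FPKM in Young-CON (log2 change −1.52, SE 0.17, adjusted p = 0.00256), H2-Ob had a log2 change of −1.33 and H2-Oa one of −1.17. By contrast H2-DMa (−0.18) and H2-DMb1 (−0.25) did not pass. The master regulator of class II genes, Ciita, fell by 1.06 on the log2 scale.

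Of 14 class I presentation genes, 3 fell (median −0.25), the 2 classical heavy chains and their light chain. H2-K1 was at 391, 495 and 439 FPKM in Young-TBI, against 755, 946 and 702 FPKM in Young-CON, without overlap (log2 change −0.85, SE 0.16, adjusted p = 0.0123). B2m, the light chain and the most abundant gene that was called, was at 1076, 1223 and 1233 FPKM in Young-TBI, against 1748, 1878 and 1557 FPKM in Young-CON (log2 change −0.55, adjusted p = 0.0351). H2-D1 averaged 208 ± 15.9 FPKM in Young-TBI and 319.7 ± 42.1 FPKM in Young-CON. These calls were lost without Young-TBI 1 or Young-TBI 3 (adjusted p = 0.055 to 0.0619) for H2-K1, without any 1 of the 6 young samples (adjusted p = 0.0587 to 0.149) for B2m and without Young-TBI 1, Young-TBI 3 or Young-CON 2 (adjusted p = 0.051 to 0.068) for H2-D1. The non-classical gene H2-Q5 was at 9.25, 12.7 and 12.3 FPKM in Young-TBI, against 32.3, 45.2 and 30.9 FPKM in Young-CON (log2 change −1.57). GENCODE annotates H2-Q5 as a polymorphic pseudogene. Class I genes are near-identical copies, so the values of single members are uncertain. The peptide transporter gene Tap1 (−0.32) and the immunoproteasome genes Psmb8 (−0.23) and Psmb9 (−0.24) did not pass.

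A cluster of GTPase genes of the immunity-associated protein family (Gimap), which lymphocytes use to survive, fell as a block. All 8 tested members lie between 48647234 and 48770851 on GRCm38 chromosome 6 with no other tested gene between them, and all 8 fell, by 0.70 (Gimap9) to 1.34 (Gimap8) on the log2 scale; the family was picked after its values were seen. Gimap6 was at 14.2, 19.4 and 11.8 FPKM in Young-TBI, against 30.7, 40.3 and 40.2 FPKM in Young-CON (log2 change −1.26, SE 0.16, adjusted p = 0.00339). Gimap3 was at 8.01, 13.4 and 8.78 FPKM in Young-TBI, against 22.1, 28.7 and 26.5 FPKM in Young-CON (log2 change −1.30). In both genes Young-TBI 2 was the highest injured sample and still below the lowest control. Gimap4, Gimap7 and Gimap8 kept their calls without any 1 young sample, whereas Gimap1 lost its call without Young-TBI 1, Young-TBI 3 or Young-CON 3 (adjusted p = 0.0503 to 0.0537), Gimap5 without Young-TBI 1 or Young-CON 3 (adjusted p = 0.0514 to 0.057) and Gimap9 without Young-TBI 1, Young-TBI 3, Young-CON 2 or Young-CON 3 (adjusted p = 0.0646 to 0.0925). Their upstream sequences are shown because these neighbours fell together. GGAAGT was in 2 of the 8 promoters, at the share of all promoters (25%), TGTGGT in 3 of the 8 (11.4% of all), AACNGNC in 4 (28.3% of all) and TTGCNNAA in none (7.7% of all). The capitals mark the same motifs as above, on either strand, in stretches from RefSeq (GRCm38.p6) that run 5′ to 3′ towards the gene start: Gimap6 chr6:48708245-48708394, minus strand; Gimap7 chr6:48718471-48718606, plus strand; and Gimap3 chr6:48770852-48771001, minus strand. The Gimap3 stretch holds none of the motifs.
Gimap6: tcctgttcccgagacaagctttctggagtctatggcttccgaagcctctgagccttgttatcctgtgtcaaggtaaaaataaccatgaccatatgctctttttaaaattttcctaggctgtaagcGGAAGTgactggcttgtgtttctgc
Gimap7: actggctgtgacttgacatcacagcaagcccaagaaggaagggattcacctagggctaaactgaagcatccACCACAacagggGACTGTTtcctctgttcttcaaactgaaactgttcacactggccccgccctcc
Gimap3: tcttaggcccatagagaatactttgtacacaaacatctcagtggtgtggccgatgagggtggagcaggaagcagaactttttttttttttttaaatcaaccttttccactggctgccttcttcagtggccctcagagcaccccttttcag

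T cell RNA fell too. Of 17 tested genes of the T cell receptor and its signalling 12 fell (median −0.74), a count that was 5 without Young-CON 3 or Young-TBI 1 and 6 without Young-CON 2 or Young-TBI 3. The co-receptor gene Cd8a was at 1.61, 2.49 and 1.5 FPKM in Young-TBI, against 4.95, 4.87 and 5.12 FPKM in Young-CON (log2 change −1.07, SE 0.16, adjusted p = 0.00538), so the controls lay within a narrow range and Young-TBI 2 was the highest injured sample. Its partner Cd8b1 had a log2 change of −1.10, and Cd4 one of −0.40, a call lost without Young-TBI 1, Young-TBI 3 or Young-CON 3 (adjusted p = 0.0638 to 0.0918). Cd3g was at 3.83, 4.02 and 3.9 FPKM in Young-TBI, against 7.25, 7.8 and 7.94 FPKM in Young-CON, both tight ranges far apart (log2 change −0.82, SE 0.12, adjusted p = 0.00521). Cd2, an adhesion receptor of T cells that mouse B cells also carry, averaged 8.32 ± 2.18 FPKM in Young-TBI and 18.2 ± 0.778 FPKM in Young-CON. Of 15 natural killer and cytotoxic genes, 1 rose and 1 fell. At an unadjusted p under 0.05 in limma, 1 was higher and 5 were lower. The granule membrane gene Nkg7 rose by 0.58, at 97.6, 84.6 and 91 FPKM in Young-TBI against 61.5, 63.4 and 56.6 FPKM in Young-CON, and the chemokine gene Ccl5 fell by 1.13 on the log2 scale, a call lost without Young-TBI 1, Young-TBI 3, Young-CON 2 or Young-CON 3 (adjusted p = 0.0587 to 0.0722). The other members did not pass, among them Gzma (−0.60), Ncr1 (−0.07) and Prf1 (−0.21), and without Young-TBI 2 the list had 3 falls.

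The receptor that lets lymphocytes leave tissues fell with them. S1pr1, a receptor of sphingosine 1-phosphate, was at 3.43, 5.25 and 2.78 FPKM in Young-TBI, against 8.62, 9.93 and 10.1 FPKM in Young-CON (log2 change −1.16, SE 0.19, adjusted p = 0.00729). It was the only fall among 16 adhesion, chemokine and egress receptors, of which 2 fell without Young-TBI 2. The marrow retention receptor Cxcr4 was at 175, 201 and 194 FPKM in Young-TBI, against 181, 212 and 209 FPKM in Young-CON, and the groups overlapped. Other sphingosine 1-phosphate receptors, looked up after these values were seen, differed in direction: S1pr5 averaged 1.19 ± 0.51 FPKM in Young-TBI and 4.34 ± 0.502 FPKM in Young-CON (log2 change −1.31), while S1pr2 was at 7.49, 7.16 and 8.97 FPKM in Young-TBI, against 5.03, 5.16 and 5.24 FPKM in Young-CON (log2 change 0.52, adjusted p = 0.00986). S1pr4 had a change of −0.07 and did not pass.

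**Figure D4:**
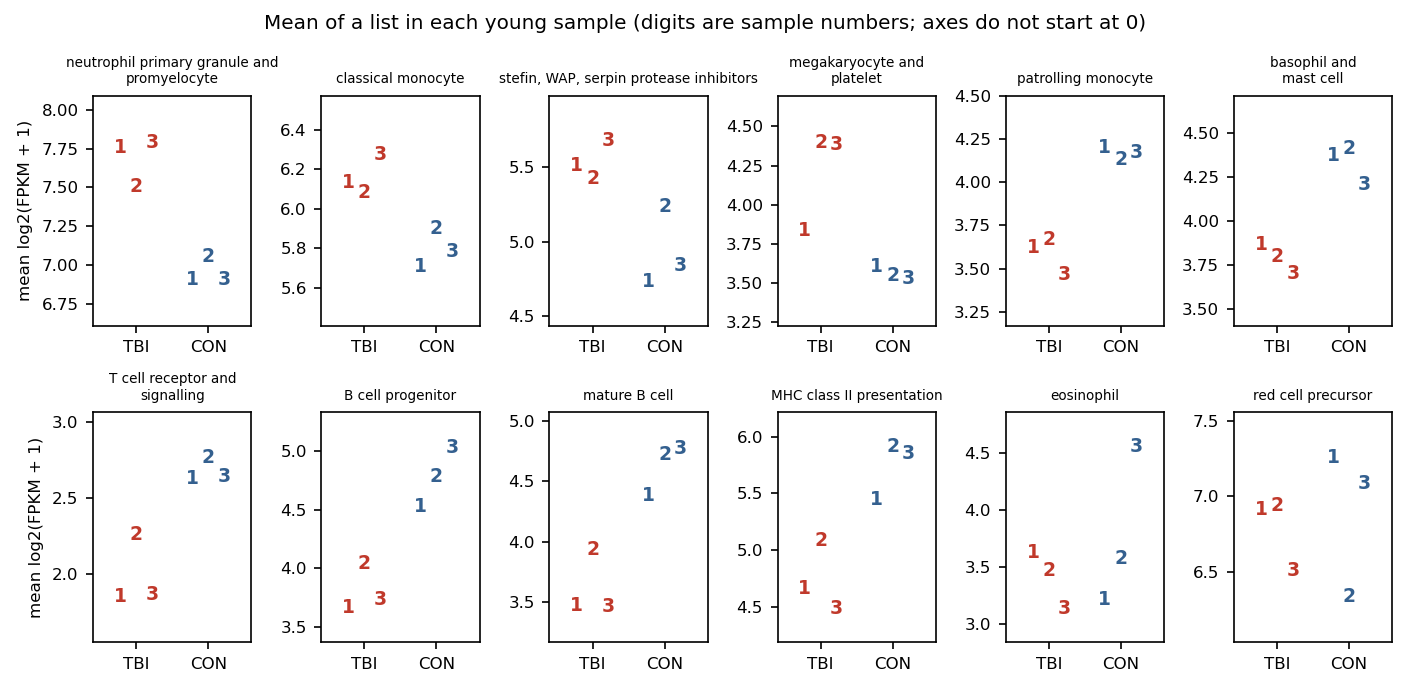
Each panel gives the mean log2(FPKM + 1) of a list's tested members in Young-TBI 1 to 3 (red digits, left) and Young-CON 1 to 3 (blue digits, right); vertical axes do not start at 0. Primary granule and classical monocyte lists are higher and the lymphoid, basophil and patrolling monocyte lists lower in all Young-TBI samples, while Young-CON 3 stands apart in the eosinophil list and Young-CON 2 in the red cell precursor list.

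Basophil genes fell and eosinophil genes did not pass. Of 9 basophil and mast cell genes 6 fell (median −0.56; 3 without Young-TBI 2, Young-TBI 3 or any of the 3 controls). Mcpt8, a protease of mouse basophils, was at 56.7, 47.2 and 47.5 FPKM in Young-TBI, against 93.9, 95.7 and 78.6 FPKM in Young-CON (log2 change −0.81, SE 0.13, adjusted p = 0.00743). Fcer1a, the alpha chain of the high-affinity IgE receptor, was at 2.86, 3.8 and 3.13 FPKM in Young-TBI, against 9.21, 8.63 and 7.12 FPKM in Young-CON (log2 change −1.13). Prss34, a further basophil protease, averaged 91.7 ± 18.7 FPKM in Young-TBI and 152 ± 19.8 FPKM in Young-CON and lost its call without Young-TBI 2, Young-TBI 3, Young-CON 1, Young-CON 2 or Young-CON 3 (adjusted p = 0.051 to 0.116). Hdc, the histamine-forming enzyme, had a change of −0.01. None of 10 eosinophil genes passed (median −0.37; at an unadjusted p under 0.05, 1 was higher and 2 were lower), a list in which Young-CON 3 stood apart; without Young-CON 1 or without Young-CON 2 1 of them fell. Of 14 dendritic cell genes, 1 fell: the transcription factor gene Spib, which B cells share, averaged 49.8 ± 5.73 FPKM in Young-TBI and 101 ± 17.4 FPKM in Young-CON. At an unadjusted p under 0.05 in limma, 7 of the 14 were lower and 0 higher (median −0.25). Of all genes, 11.4% were lower at that level. Siglech of plasmacytoid dendritic cells did not pass (−0.59). None of 15 macrophage genes passed (median −0.35; 4 lower at an unadjusted p under 0.05); 3 fell without Young-CON 2, where C1qa was at 27.9 FPKM, against 44.6 and 36.6 FPKM in the other controls.

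Among regulators of stem and progenitor cells, 3 of 17 fell (1 without Young-TBI 1, Young-TBI 3, Young-CON 2 or Young-CON 3). Of all genes, 3.15% fell. Gata2, a transcription factor of stem cells, basophils and mast cells, was at 7.73, 8.84 and 7.59 FPKM in Young-TBI, against 12.7, 12.6 and 11.8 FPKM in Young-CON (log2 change −0.56, SE 0.08, adjusted p = 0.004). Sox4 averaged 10.5 ± 0.772 FPKM in Young-TBI and 15.7 ± 2.41 FPKM in Young-CON and Cd27 6.38 ± 0.0748 and 8.69 ± 0.871 FPKM in Young-TBI and Young-CON; both genes are also expressed by lymphoid progenitors. Sox4 lost its call without Young-TBI 1, Young-TBI 3, Young-CON 2 or Young-CON 3 (adjusted p = 0.0646 to 0.109), and Cd27 did without Young-TBI 1, Young-TBI 2, Young-TBI 3, Young-CON 2 or Young-CON 3 (adjusted p = 0.0596 to 0.0931). Kit had a log2 change of 0.05, Cd34 one of −0.02 and Flt3 one of 0.18.

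The niche gene Kitl, which encodes stem cell factor, the ligand of Kit, was listed at 54.9, 72 and 65.6 FPKM in Young-TBI, against 19.6, 32 and 25.4 FPKM in Young-CON (log2 change 1.31, SE 0.19, adjusted p = 0.00467). The inflammasome sensor gene Nlrp3 did not pass (log2 change 0.88, adjusted p = 0.0764). Kitl and Nlrp3 were among 3 exceptions to a property of the table. Of 18264 entries above 0, all but these 3 were whole numbers of fragments in all 12 samples at a whole-base gene length, within a tolerance of 0.05, whereas at any length from 150 to 25000 bases Kitl was whole in at most 7 of the 12 samples, and Nlrp3 in at most 6. The fragments of the genes outside these 3 already summed to 99.994% to 100.002% of the mapped fragments of each sample. At its annotated exon length Kitl would need a further 0.0324% to 0.0426% of the mapped fragments in Young-TBI and 0.0116% to 0.0189% in Young-CON. The values of Kitl and Nlrp3 were therefore not on the same footing as those of the other genes, and the reason was not tested. Without the 3 exceptions, 603 genes passed.

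Other niche genes gave no call, and stress-signal genes gave some. Besides Kitl, none of 16 stromal, bone and vessel genes passed: Cxcl12, the ligand of Cxcr4, was at 16, 28.2 and 16.6 FPKM in Young-TBI, against 22.5, 19.9 and 19.2 FPKM in Young-CON, and the bone matrix genes Col1a1 and Bglap had changes of −1.01 and −0.91. Of all genes, 3.15% fell and 2% rose. Of 26 adrenergic and cAMP signalling genes, 3 fell and 1 rose (median −0.03). Those that fell were Akap12, Pde7a and Crebbp. Akap12, a scaffold of protein kinase A, fell by 0.88 on the log2 scale and lost its call without Young-TBI 1, Young-TBI 3, Young-CON 2 or Young-CON 3 (adjusted p = 0.0518 to 0.0753). The phosphodiesterase gene Pde7a, which degrades cAMP, fell by 0.53 and lost its call without Young-TBI 1, Young-TBI 3, Young-CON 2 or Young-CON 3 (adjusted p = 0.0736 to 0.0935). Of 16 glucocorticoid response genes only the metallothionein gene Mt1 rose (3 genes passed without Young-CON 1), at 57, 48.4 and 45.8 FPKM in Young-TBI against 36.1, 23.7 and 31.9 FPKM in Young-CON, and lost its call without Young-TBI 1, Young-TBI 3, Young-CON 2 or Young-CON 3 (adjusted p = 0.0566 to 0.0994). The glucocorticoid receptor gene Nr3c1 had a change of −0.16 (adjusted p = 0.268). Among 13 circadian clock genes Arntl fell by 0.70, a call lost without Young-TBI 1, Young-CON 2 or Young-CON 3 (adjusted p = 0.0514 to 0.0694).

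Red cell and platelet genes gave no calls in limma. None of 18 red cell precursor genes was lower or higher even at an unadjusted p under 0.05 (median −0.05), with Alas2 at 622, 503 and 379 FPKM in Young-TBI, against 912, 397 and 787 FPKM in Young-CON. Megakaryocyte and platelet genes were higher but uneven: none of 18 passed in limma, 5 were higher at an unadjusted p under 0.05 and the median was 0.68. For 15 of the 18 the groups did not overlap, against 12.9% of all genes that were higher without overlap. Mean log2(FPKM + 1) of the list was 3.84, 4.4 and 4.38 in Young-TBI 1 to 3, against 3.61, 3.55 and 3.53 in Young-CON 1 to 3, so Young-TBI 1 was nearest to the controls. The platelet glycoprotein gene Gp9 was at 17.6, 27.1 and 26 FPKM in Young-TBI, against 14.7, 12.4 and 13 FPKM in Young-CON (adjusted p = 0.169). Ctsk, the collagen-degrading protease of osteoclasts, did not pass despite a wide gap between groups, with 8.37, 10.3 and 4.46 FPKM in Young-TBI, against 0.995, 0.957 and 1.32 FPKM in Young-CON (log2 change 2.0, SE 0.63, adjusted p = 0.098). No other osteoclast gene of the 5 tested passed, and Acp5 had a change of 0.10. Among the lists with no call in limma, voom on the recovered fragments called 1 megakaryocyte gene higher and 1 eosinophil gene lower, and none in the others.

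Some genes of protein export and of glycolysis rose by small amounts. Of 27 genes of endoplasmic reticulum folding and secretion 5 rose and none fell (median 0.11; 3 without Young-CON 1 or Young-CON 2, 2 without Young-TBI 1 or Young-TBI 3 and 1 without Young-CON 3). Sec61b, part of the channel through which new proteins enter the reticulum, was at 187, 201 and 199 FPKM in Young-TBI, against 154, 153 and 142 FPKM in Young-CON (log2 change 0.39, SE 0.06, adjusted p = 0.00521). P4hb, a disulfide isomerase, averaged 223 ± 22.4 FPKM in Young-TBI and 167 ± 8.0 FPKM in Young-CON and lost its call without Young-CON 3 (adjusted p = 0.0587). The stress-induced chaperone Hspa5 had a change of −0.10 and the stress factor Ddit3 one of −0.33, and neither passed. Of 20 glycolysis and hypoxia genes 3 rose, namely Tpi1 (0.31), Gapdh (0.31) and Pgk1 (0.33). Each lost its call when single samples were left out: Tpi1 without Young-TBI 1, Young-TBI 3 or Young-CON 3 (adjusted p = 0.0553 to 0.0772), Gapdh without Young-TBI 1, Young-TBI 3, Young-CON 1, Young-CON 2 or Young-CON 3 (adjusted p = 0.0735 to 0.196) and Pgk1 without any 1 of the 6 young samples (adjusted p = 0.0501 to 0.185). In the cholesterol synthesis list 2 of 19 rose: Fdps, at 43.3, 33.9 and 40.1 FPKM in Young-TBI against 29.5, 23 and 23.4 FPKM in Young-CON, lost its call without Young-TBI 1, Young-TBI 3, Young-CON 2 or Young-CON 3 (adjusted p = 0.0516 to 0.067), and Mvk without any 1 of the 6 young samples (adjusted p = 0.0692 to 0.153). The glutathione-degrading enzyme gene Ggt1 was the only rise of 22 antioxidant genes and lost its call without Young-TBI 1, Young-TBI 3 or Young-CON 3 (adjusted p = 0.0682 to 0.0835), while 2 of the list passed without Young-TBI 2 or Young-CON 2.

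Growth machinery gave 1 call. None of 28 cell cycle and DNA replication genes passed in limma, although all 28 had changes above 0 (0.08 to 0.29). Of the 28, 2 were higher at an unadjusted p under 0.05 and 3 were higher without overlap. Mean log2(FPKM + 1) of the list was 6.26, 6.25 and 6.10 in Young-TBI 1 to 3, against 6.19, 5.82 and 6.08 in Young-CON 1 to 3. The groups thus overlapped, and Young-CON 2 was the lowest sample. None of 73 cytosolic ribosomal protein genes passed (median 0.07; 3 higher at an unadjusted p under 0.05), none of 31 proteasome genes (median 0.06; 2 higher at that level) and 1 of 72 nuclear genes of oxidative phosphorylation (median 0.12; 25 higher at an unadjusted p under 0.05). That gene was Ndufb3, at 98.1, 99.1 and 92.6 FPKM in Young-TBI against 76.2, 80.5 and 82.5 FPKM in Young-CON, and it lost its call without any 1 of the 6 young samples (adjusted p = 0.0603 to 0.101). Of all genes, 8.72% were higher at an unadjusted p under 0.05 and 12.9% were higher without overlap. Higher without overlap were 38 of the 72 oxidative phosphorylation, 33 of the 73 ribosomal protein and 9 of the 31 proteasome genes. None of these 3 lists had a gene that was lower without overlap. None of 21 ribosome biogenesis genes passed (1 lower at an unadjusted p under 0.05), with Nop56 at −0.22. Of 83 small nucleolar RNA entries, a class looked up after values were seen, 2 fell and none rose. These were Snora61, at 4.86, 8.01 and 9.2 FPKM in Young-TBI against 14.8, 23.2 and 19.2 FPKM in Young-CON, and Snora70. Both rested on few fragments in the young samples, 4 to 18 for Snora61 and 5 to 28 for Snora70. Each overlaps another tested gene on the same strand, Snora61 with Snhg12 and Snora70 with Rpl10. Snora61 lost its call without Young-TBI 1, Young-CON 2 or Young-CON 3 (adjusted p = 0.0686 to 0.0801), and Snora70 without Young-TBI 3, Young-CON 2 or Young-CON 3 (adjusted p = 0.0983 to 0.126).

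Immediate early genes fell in part. Of 18, 7 fell and none rose (median −0.22; 4 without Young-CON 2 or Young-TBI 1 and 3 without Young-CON 3 or Young-TBI 3). Ier5 was at 24.4, 23.8 and 22.5 FPKM in Young-TBI, against 33.7, 37.3 and 34.4 FPKM in Young-CON, the lowest adjusted p of the list (log2 change −0.56, SE 0.06, adjusted p = 0.00194). Klf2, a transcription factor that keeps lymphocytes quiescent and drives S1pr1, was at 58.9, 55.4 and 54.5 FPKM in Young-TBI, against 83, 94.5 and 82.7 FPKM in Young-CON (log2 change −0.61, SE 0.08, adjusted p = 0.00386), and Jund fell by 0.63 on the log2 scale. Fos was at 15.9, 15.1 and 19.3 FPKM in Young-TBI, against 18.6, 13.8 and 22.8 FPKM in Young-CON, and overlapped. Inflammatory and interferon genes differed in their calls. Of 17 cytokine and NF-kB target genes, Cxcl10 rose and Relb, Nfkb2 and Nfkbiz fell, while 2% of all genes rose and 3.15% fell. Cxcl10, an interferon-induced chemokine, was at 9.24, 5.68 and 7.84 FPKM in Young-TBI, against 2.8, 4.13 and 3.18 FPKM in Young-CON, and lost its call without Young-TBI 1, Young-TBI 3 or Young-CON 3 (adjusted p = 0.0652 to 0.0665). Relb, a subunit of NF-kB, averaged 6.13 ± 0.329 FPKM in Young-TBI and 8.52 ± 0.279 FPKM in Young-CON and lost its call without Young-TBI 1, Young-TBI 3, Young-CON 2 or Young-CON 3 (adjusted p = 0.0686 to 0.111); Nfkb2 did so without Young-TBI 1, Young-TBI 2, Young-TBI 3, Young-CON 2 or Young-CON 3 (adjusted p = 0.0559 to 0.119) and Nfkbiz without Young-TBI 1, Young-TBI 2, Young-TBI 3, Young-CON 2 or Young-CON 3 (adjusted p = 0.0662 to 0.133). None of 26 type I interferon genes passed (median −0.22; 1 higher at an unadjusted p under 0.05), a list in which Young-CON 1 stood apart, and of 14 interferon-induced GTPase genes Gbp9 fell by 0.68, a call lost without Young-TBI 1, Young-TBI 3, Young-CON 1, Young-CON 2 or Young-CON 3 (adjusted p = 0.0551 to 0.0857); without Young-TBI 2, 2 of the 14 fell.

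Complement genes moved in both directions. Factor B (Cfb), of the alternative pathway, was at 5.54, 4.6 and 7.29 FPKM in Young-TBI, against 2.22, 3.46 and 2.55 FPKM in Young-CON (log2 change 0.86, adjusted p = 0.036) and lost its call without Young-TBI 1, Young-TBI 3, Young-CON 1 or Young-CON 3 (adjusted p = 0.0965 to 0.153). Cd55, which protects cells from complement, was at 13.1, 18.2 and 12.7 FPKM in Young-TBI, against 26.1, 25.2 and 27.4 FPKM in Young-CON (log2 change −0.82, adjusted p = 0.0051). The other 9 complement genes did not pass. Of 24 chromatin regulators 2 fell, the acetyltransferase gene Crebbp (−0.34) and the remodelling ATPase gene Smarca4 (−0.35), which lost their calls without Young-TBI 1, Young-TBI 2, Young-TBI 3, Young-CON 2 or Young-CON 3 (adjusted p = 0.0823 to 0.144) and without Young-TBI 1, Young-TBI 2, Young-TBI 3, Young-CON 2 or Young-CON 3 (adjusted p = 0.071 to 0.14). Of 15 p53 targets and cell cycle inhibitors, Cdkn1b fell by 0.34 and Btg2 by 0.37; Cdkn1b lost its call without Young-TBI 1, Young-TBI 3, Young-CON 2 or Young-CON 3 (adjusted p = 0.0613 to 0.121) and Btg2 without Young-TBI 1, Young-TBI 3, Young-CON 1 or Young-CON 3 (adjusted p = 0.0984 to 0.189). No heat shock chaperone gene of 9 and no clustered histone gene of 27 passed in limma, with 1 of each list higher at an unadjusted p under 0.05 and 1 of each called without Young-CON 1.

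Many of the 134 genes that passed without any 1 young sample lie outside the lists, and most of the following were picked after their values were seen. Gstm1, a glutathione transferase, was at 140.1, 118 and 141 FPKM in Young-TBI, against 63.4, 72.2 and 62.5 FPKM in Young-CON (log2 change 1.0, SE 0.10, adjusted p = 0.00174). Ptgr1, which inactivates leukotriene B4, averaged 35.3 ± 4.7 FPKM in Young-TBI and 20.3 ± 1.67 FPKM in Young-CON (log2 change 0.77). Il1rl2, the receptor of interleukin-36, was at 3.98, 3.82 and 3.8 FPKM in Young-TBI, against 1.78, 1.84 and 1.87 FPKM in Young-CON (log2 change 0.78), ranges that were narrow and far apart. Lbp, which passes bacterial lipopolysaccharide to Cd14, averaged 46 ± 5.96 FPKM in Young-TBI and 29.2 ± 2.04 FPKM in Young-CON, and the chemokine gene Ccl9 56.2 ± 2.64 FPKM in Young-TBI and 34.9 ± 5.28 FPKM in Young-CON. Hpse, which encodes heparanase, had a log2 change of 0.48, and Gusb, which encodes beta-glucuronidase, one of 0.45. Ada, adenosine deaminase, rose by 0.68, the scavenger receptor Lrp1 by 0.61 and the creatine synthesis gene Gatm by 0.66. Falls included genes of lymphocyte signalling. The guanine exchange factors Rasgrp1 and Rasgrp3 fell by 0.92 and 0.89 on the log2 scale, the NAD hydrolase Cd38 by 0.76 and the lymphoid progenitor marker Ly6d by 0.99. The apolipoprotein L gene Apol11b was at 56.8, 83.9 and 61.7 FPKM in Young-TBI, against 253, 168 and 142 FPKM in Young-CON (log2 change −1.44); Young-CON 1 was far above the rest, and the values of this multigene family are uncertain.

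Several of the genes named overlap another tested gene, and the labels do not say whether counting used strand, so reads of such partners cannot be told apart. Cxcr5 overlaps Bcl9l, Cd27 overlaps Vamp1, Ccl6 overlaps E230016K23Rik, Gapdh overlaps Iffo1, Tpi1 overlaps Spsb2 and Nfkb2 overlaps Psd, each on the opposite strand, and Gbp9 overlaps Gbp8 and Gbp4 on the same strand. In all, 17 of 150 genes picked by the naming rule had such a partner.

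The same injury in aged marrow served to test whether the change in young marrow differed with age. The interaction, the aged injury effect minus the young, passed for 23 genes (0.195%), of which 19 were also called in young marrow. Mpo was at 834, 737 and 805 FPKM in Aged-TBI, against 896, 824 and 827 FPKM in Aged-CON, and its injury effect was 0.96 lower on the log2 scale in aged than in young marrow (SE 0.15, adjusted p = 0.0478). Ctsg was at 279, 235 and 252 FPKM in Aged-TBI, against 268, 271 and 270.0 FPKM in Aged-CON (interaction −1.24, adjusted p = 0.027). The Aged-CON samples thus lay between the levels of Young-TBI and Young-CON for Ctsg. Interactions of Prtn3, Elane, Prss57, Ms4a3 and Cst7 passed as well, each below 0. The 49 rises and 85 falls kept without any 1 young sample were chosen by their young change, which enters the interaction. Their aged values are therefore given as a description and cannot test a difference by age. The median log2 change of the 49 was −0.03 in aged and 0.66 in young marrow, and that of the 85 was −0.22 in aged and −1.03 in young marrow. Ccr6 had an interaction that passed in the other direction (1.13). For Cd79a, with an aged change of −0.30, the interaction of 1.09 did not pass (adjusted p = 0.0811). The interactions of Kitl, H2-K1 and B2m did not pass, and their aged changes were 1.92 (Kitl), −0.88 (H2-K1) and −0.64 (B2m). The interaction calls depended on single libraries: no interaction passed without Young-TBI 1, Young-TBI 3, Young-CON 1, Young-CON 3, Aged-TBI 3 or Aged-CON 2, while 5 passed without Aged-TBI 1, 2 without Aged-TBI 2, 1 without Aged-CON 3, 100 without Young-TBI 2 and 2104 without Aged-CON 1.

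**Figure D5:**
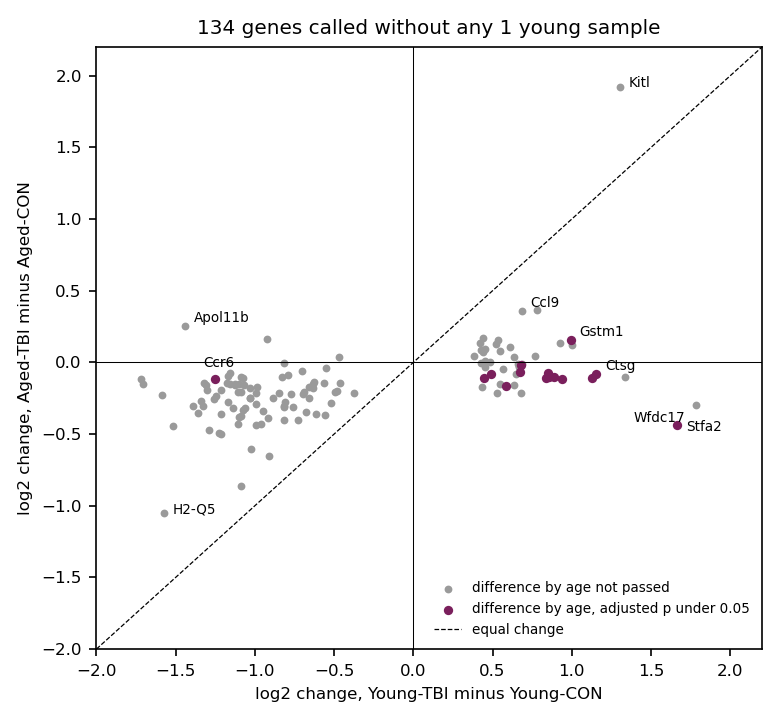
Each point is 1 of the 134 genes that passed without any 1 young sample, with its log2 change in young marrow (Young-TBI minus Young-CON) on the horizontal axis and in aged marrow (Aged-TBI minus Aged-CON) on the vertical axis. Most points lie near 0 on the vertical axis, between the dashed line of equal change and 0 for the falls, and the 15 purple genes had an interaction with an adjusted p under 0.05 in limma.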

How the data were processed

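The deposited table holds FPKM values per gene for 12 marrow samples, normalized by the authors for gene length and mapped fragments. The submitters' processing notes name GRCm38 and mm10 as builds; the sources used here name no aligner or counter. The FPKM steps gave whole fragments for nearly all genes (tolerance 0.05), and from them 12.3 to 15.9 M mapped fragments per sample were recovered. Counting error limits genes near 1 FPKM.

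Values were tested as log2(FPKM + 1) in limma 3.58.1 (R 4.3.3), which fitted a mean for each of 4 groups over all 12 samples with a variance trend. Fold changes on this scale understate changes of low genes. P-values were Benjamini-Hochberg adjusted over 11767 genes, and calls were made at 0.05. The interaction is the aged minus the young injury effect. The fit was tested on simulated data. Samples of equal number were not treated as pairs. The genes named were the 15 largest called rises and falls at 5 FPKM or more whose groups did not overlap, the 10 most abundant called genes, up to 4 called members per list and direction, 10 genes set by their role, and the 10 strongest interactions. The members, the 51 gene lists and the tests were chosen with earlier results of these data known. Alternatives changed the pseudocount, filter, scaling, variance model, covariates and samples. Of the entries, 27 carry dates in place of gene names and were not named. Coordinates are GENCODE's on GRCm38, and promoter sequences RefSeq's on GRCm38.p6. Some genes are not reported here.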

Additional observations from a re-analysis of the deposited data

Results flagged for a closer look

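The injury effect differed between aged and young marrow by the interaction test in limma for 23 genes, with adjusted p of 0.027 to 0.0491. The difference, aged minus young on the log2 scale, was below 0 for 21 of them and above 0 for 2, Chchd10 (1.44) and Ccr6 (1.13). Among primary granule genes it was −1.24 for Ctsg, −1.23 for Prtn3, −1.06 for Ms4a3, −0.96 for Mpo, −0.95 for Elane, −0.92 for Prss57 and −0.74 for Cst7. It was −2.10 for Stfa2, −1.73 for Cfb, −0.99 for B4galt6, a glycosyltransferase gene, −0.84 for Gstm1, −0.75 for Nkg7 and −0.70 for Dbi. It was −0.59 for Nucb2, −0.57 for Dnajb14, −0.55 for Etfb and −0.55 for Nme2. In young marrow Chchd10, Nucb2 and Nme2 passed in the fit of all samples, but not in every fit that left out a young sample. For Fos (−2.15), Junb (−1.05), the cytokine gene Osm (−0.94) and the linker histone gene Hist1h1c (−0.91) no change passed in young marrow, and the log2 change in aged marrow was −2.26 for Fos, −1.13 for Junb, −1.16 for Osm and −0.79 for Hist1h1c. No interaction passed without Young-TBI 1, Young-TBI 3, Young-CON 1, Young-CON 3, Aged-TBI 3 or Aged-CON 2. None of the 23 passed with the red cell precursor level as a covariate.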

How the results depend on the processing

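Against 606 genes called in young marrow, 1313 were called with the red cell precursor level as a covariate, 1595 with weights per sample and 390 in the 6 young samples only. The other scalings, filters, pseudocount, variance model, voom and the fit without the 3 genes off whole fragments gave 478 to 651. The balance of 235 higher and 371 lower calls was 296 and 320 after quantile normalization and 177 and 384 after rescaling without the 10 most abundant genes. Leaving out 1 sample gave 160 to 970. For the young comparison, leaving out an aged sample was chosen after seeing the data, as was leaving out the 3 genes for either result. The replicate block called 472; the numbers do not pair the samples (correlations of deviations in young marrow 0.0613, −0.067 and −0.117). Of the 134 genes kept without any 1 young sample, 133 or 134 passed under the alternatives that kept all 12 samples and all genes and in the 6 young samples only, except the 5 FPKM filter, under which all 119 tested did; voom could not include Kitl. Against 23 interactions, 7 passed with no filter, 40 at 5 FPKM and 9 after rescaling without the 10 most abundant genes. With no variance trend 6 passed, with voom 44, with the replicate block 0 and with weights 2977. With the red cell covariate 2 passed, both above 0 and neither among the 23. Leaving out 1 sample gave 0 to 2104 interactions. Some changes that were not called turned sign: the Gfap log2 change in young marrow (0.017) was −0.149 with weights and −0.257 to 0.210 when 1 sample was left out. The Cxcl12 log2 change in young marrow was then −0.312 to 0.077, that of Spi1 −0.007 to 0.158 and that of Fos −0.290 to 0.050. The cause was not tested. Genes near 1 FPKM rest on few fragments.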

Other observations

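Chromosome 17, which carries the class I and class II histocompatibility genes, had 32 falls and 3 rises among 615 tested genes (5.2% fell, against 3.15% of all genes). It did not stand alone: 5.42% of 406 genes fell on chromosome 19 and 5.12% of 371 on chromosome 16. The E2A motif CAGGTG, on either strand, was in the 250 bases before the start of 11 of 24 B cell genes that fell (45.8%) and of 14.4% of all 8857 promoters. The motif of EBF1, also a B cell factor, was in 12.5% of the 24, against 15.3% of all promoters. GGAAGT was in 37.5% (25% of all), AACNGNC in 37.5% (28.3%) and TGTGGT in 16.7% (11.4%). TTGCNNAA was in 8.33% (7.7% of all), and the CREB motif TGACGTCA in 0% (2.77%). Binding was not tested.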
